A study of Homo sapiens with 17 samples.

Results

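MLT1 copies were followed across 17 RIP-seq and total RNA libraries of N2102Ep, an established human embryonal carcinoma line. They were taken by name: every row of the deposited repeat table in the family ERVL-MaLR whose subfamily name begins with MLT1. This gave 165343 of 3594049 repeat loci, or 4.60% of them. Of these, 157767 were long terminal repeats (LTRs) in 29 subfamilies and 7576 were internal parts, marked -int, in 30 subfamilies. RIP-seq pulls a protein down on affinity media and sequences the RNA that comes with it, here for ORF2p and ORF1p, the LINE-1 proteins. The groups were 4 ORF2p RIP libraries, 4 ORF1p RIP libraries, 3 mock IP libraries and 6 total RNA libraries. The source label is N2102Ep clone 2/A6 for the ORF2p RIP, the mock IP and total RNA, and embryonal for the ORF1p RIP. The mock IP descriptions carry the term mIgG. Those of total RNA carry the marks b (replicates 1 and 2) and bl (replicates 3 to 6). Whether replicates are separate cultures is not labelled. Their p-values may therefore rest on technical spread alone. The label of the cells was set against HERVH-int and its LTR7 ends, repeats known to be active in pluripotent cells. They took 6.07% to 7.16% of repeat reads in the ORF2p RIP, 3.48% to 5.58% in the ORF1p RIP, 19.3% to 21.2% in the mock IP and 8.39% to 13.6% in total RNA.

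MLT1 elements belong to the mammalian apparent LTR retrotransposons (MaLR), old relatives of the ERVL endogenous retroviruses. They spread in early mammals and no copy is known to move today. The LTR is the promoter-bearing end of such an element, and most copies are solo LTRs left when both ends recombined and the internal part was lost. The internal part of a MaLR element codes for no known working protein, so these elements must have relied on enzymes of others. MLT1 copies lie scattered through introns and between genes, and many are transcribed as passengers of a longer RNA. ORF1p is the RNA-binding protein of LINE-1 and ORF2p its endonuclease and reverse transcriptase, and both prefer the LINE-1 RNA that encodes them. Letters A to O name subfamilies roughly from younger to older. Among the LTR subfamilies the median divergence of the copies from their consensus was lowest in MLT1B, at 18.4% of bases, and highest in MLT1O, at 29.2%.

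Some MLT1 copies hold the annotated start of a gene, so the transcript begins inside the old LTR. Promoter windows of RefSeq (GRCh38.p14, 250 bases before to 50 after each start) were set against the table, which uses hg38. In all, 492 copies overlapped a window of 476 genes, and 7 of these had enough reads to be tested. The 4 windows below were chosen, after their values were seen, to show copies whose RNA differed between the groups. Capitals mark the bases inside the MLT1 copy, and each window is read on the strand of its gene. The first belongs to LOC105369878, chr12:87055197-87055496, minus strand, of which 245 bases lie in an MLT1E1A copy. The second belongs to LINC02465, chr4:129771369-129771668, plus strand, and lies wholly in an MLT1F copy. The third belongs to CPS1, the gene of the first enzyme of the urea cycle, chr2:210519468-210519767, plus strand, with 206 bases in an MLT1N2 copy. The last belongs to CCL26, a chemokine that draws eosinophils, chr7:75789697-75789996, minus strand, with 110 bases in an MLT1C copy that does not reach the start.
LOC105369878: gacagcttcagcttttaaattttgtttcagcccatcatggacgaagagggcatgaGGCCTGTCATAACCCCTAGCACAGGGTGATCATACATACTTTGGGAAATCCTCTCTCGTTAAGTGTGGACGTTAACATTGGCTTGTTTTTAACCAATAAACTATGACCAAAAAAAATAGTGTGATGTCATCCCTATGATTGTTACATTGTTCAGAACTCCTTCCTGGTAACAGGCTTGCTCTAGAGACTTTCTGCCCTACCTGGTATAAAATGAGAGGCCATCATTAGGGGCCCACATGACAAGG
LINC02465: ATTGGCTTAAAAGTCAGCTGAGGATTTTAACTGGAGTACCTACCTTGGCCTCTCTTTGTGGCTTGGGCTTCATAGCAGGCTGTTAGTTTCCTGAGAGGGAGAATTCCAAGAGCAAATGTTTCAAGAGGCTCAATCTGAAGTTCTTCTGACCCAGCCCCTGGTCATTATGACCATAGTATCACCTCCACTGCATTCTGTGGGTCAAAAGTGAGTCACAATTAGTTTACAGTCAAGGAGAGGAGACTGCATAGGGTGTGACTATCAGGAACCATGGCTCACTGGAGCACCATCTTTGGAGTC
CPS1: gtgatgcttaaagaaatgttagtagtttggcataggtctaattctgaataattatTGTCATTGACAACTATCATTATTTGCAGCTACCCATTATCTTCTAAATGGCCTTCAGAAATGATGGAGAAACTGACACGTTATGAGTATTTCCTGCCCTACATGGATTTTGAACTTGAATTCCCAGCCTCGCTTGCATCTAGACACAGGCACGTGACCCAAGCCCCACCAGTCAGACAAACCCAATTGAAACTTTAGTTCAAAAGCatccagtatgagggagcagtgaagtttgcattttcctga
CCL26: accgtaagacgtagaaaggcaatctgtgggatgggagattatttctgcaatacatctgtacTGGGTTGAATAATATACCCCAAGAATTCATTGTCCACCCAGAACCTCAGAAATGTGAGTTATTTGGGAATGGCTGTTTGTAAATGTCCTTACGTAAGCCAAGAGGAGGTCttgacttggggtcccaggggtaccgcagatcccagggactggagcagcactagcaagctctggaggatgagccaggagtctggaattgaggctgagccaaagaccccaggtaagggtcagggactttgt

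The MLT1E1A copy at the start of LOC105369878 (chr12:87054893-87055441) held 9.04, 8.48, 10.1 and 14.5 CPM (repeat reads relative to library size, with TMM factors) in the ORF2p RIP, 0 in all 4 ORF1p RIP libraries, 0.733, 0.547 and 0.376 CPM in the mock IP, and 0.146 to 2.13 CPM in total RNA. All ORF2p RIP libraries lay above all others. The change of ORF2p over the mock IP was 4.22 ± 0.69 on the log2 scale (SE, edgeR adjusted p = 0.000119). The MLT1F copy of LINC02465 lies on the strand opposite to that gene and also holds the start of LINC02466, on its own strand, so its reads cannot be given to one of these genes. It held 4.79, 5.53, 4.397 and 6.31 CPM in the ORF2p RIP, 0 to 0.322 CPM in the ORF1p RIP, 1.20 to 1.95 CPM in the mock IP and 1.29 to 1.785 CPM in total RNA, a change of 1.69 ± 0.47 with ORF2p (SE, edgeR adjusted p = 0.00649). The MLT1N2 copy of CPS1 went with the other RIP. It held 0.419 to 0.861 CPM in the ORF2p RIP, 4.91, 5.34, 4.19 and 4.56 CPM in the ORF1p RIP, 0.122, 0.304 and 0.225 CPM in the mock IP, and 0.126 to 0.614 CPM in total RNA, a change of 4.396 ± 0.59 with ORF1p over the mock IP (SE, edgeR adjusted p = 1.37e-06). The MLT1C copy of CCL26 was lower than the mock IP in both, at 0.960 to 2.51 CPM in the ORF2p RIP and 0 to 0.534 CPM in the ORF1p RIP, against 7.204, 6.74 and 6.46 CPM in the mock IP (edgeR adjusted p = 0.0203 and 3.65e-05). Total RNA, at 0.512 to 3.53 CPM, overlapped the ORF2p RIP, and the mock IP lay above all other libraries. The level needed for a test by copy was about 3.76 CPM. Each of these 4 copies reached it only in the group where it was high. They were also chosen by these values, so their p-values and lack of overlap are descriptions and no separate support. In the capitals of LOC105369878 the motifs TATAAA and AATAAA each occur, and in those of the other 3 windows neither does. The first base of TATAAA lies at 9 from the annotated start, after it, and that of AATAAA at -101. Over their whole length and on either strand, 11.5% of all 35116 promoter windows hold TATAAA and 17.4% hold AATAAA. These rates are not for the stretch inside a copy.

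The depth of the table was 7693841 to 19670774 repeat reads per library, and 35629 MLT1 copies (21.5%) had no read in any of the 17, against 17.5% of all repeat loci. Of the MLT1 copies, 2456 (1.49%) had enough reads for a test by copy, and they hold 39.7% of MLT1 reads. The ORF1p RIP libraries stood apart. Across the tested MLT1 copies their log2 levels correlated at 0.909 to 0.966 with each other (Pearson), at -0.20 to -0.16 with the ORF2p RIP, at -0.30 to -0.23 with the mock IP and at -0.35 to -0.26 with total RNA. In the other groups, ORF2p RIP and mock IP correlated at 0.525 to 0.585, and mock IP and total RNA at 0.704 to 0.908. Copies passed the filter through any group, 584 of them through the ORF1p RIP alone, which lowers such correlations. Over the 968 copies at 4 CPM or more in total RNA, the ORF1p RIP stood at -0.05 to 0.0765 with total RNA. There the ORF2p RIP stood at 0.479 to 0.601 and the mock IP at 0.536 to 0.863 with total RNA. The total RNA libraries stood at 0.479 to 0.966 with each other. Choosing copies by their total RNA level can lower such correlations too. Of these 968, 3 were more than 10-fold below their total RNA level in the ORF2p RIP, 572 in the ORF1p RIP and 0 in the mock IP. Among the tested MLT1 copies, 204 had no read in the 4 ORF1p RIP libraries and at least 10 reads in each of the other 13. These counts were not taken over all repeats. With ORF1p over the mock IP, 46.7% of the tested MLT1 copies were lower (edgeR adjusted p under 0.05 and at least 2-fold). The share was 35.5% of all tested repeat loci, 48.8% of THE1 and MST loci and 48.1% of ERVL loci. The antibody and the source of the cells cannot be told apart in any comparison with the ORF1p RIP. Libraries are relative, so more of one RNA and less of the others cannot be told apart either, nor can fewer cells making an RNA and less RNA per cell.

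As a share of repeat reads, MLT1 LTRs made up 2.59 ± 0.07% in the ORF2p RIP, 2.86 ± 0.36% in the ORF1p RIP, 3.13 ± 0.06% in the mock IP and 3.30 ± 0.35% in total RNA (SD, n = 4, 4, 3 and 6). The 4 ORF2p RIP libraries, at 2.50% to 2.65%, lay below the 3 of the mock IP, at 3.07% to 3.19%. In the ORF1p RIP, replicate 3 stood at 2.33% and the others at 2.94% to 3.14%. The 2 total RNA libraries marked b, at 3.71% and 3.76%, lay above the 4 marked bl, at 2.97% to 3.22%. MLT1 internal parts made up 0.167 ± 0.006% in the ORF2p RIP, 0.193 ± 0.023% in the ORF1p RIP, 0.208 ± 0.007% in the mock IP and 0.241 ± 0.008% in total RNA (SD, same n). MLT1 copies cover 3.99% of the bases of all repeats in the table.

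**Figure D1:**
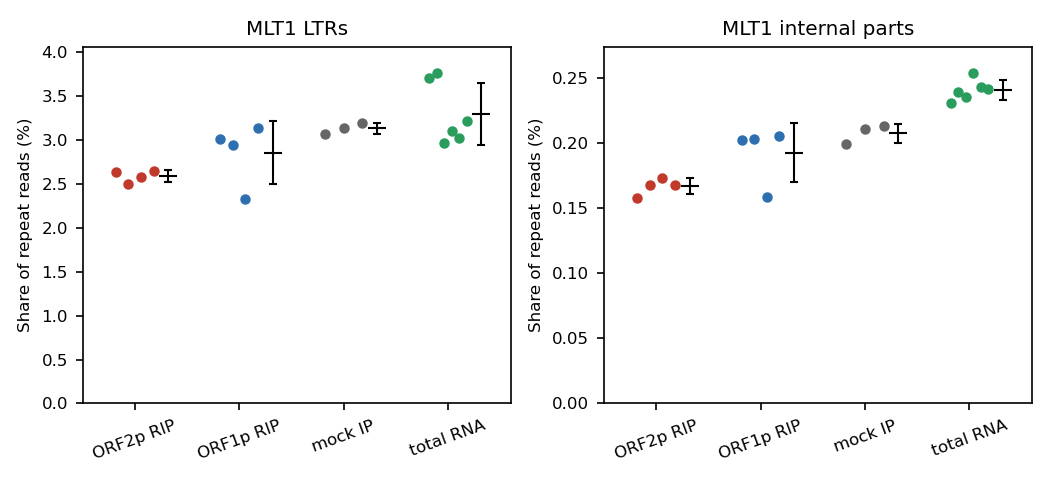
Share of repeat reads in MLT1 LTRs (left) and MLT1 internal parts (right), in percent, for each library of the 4 groups (points) with the mean ± SD beside them. The ORF2p RIP libraries sit below the mock IP libraries in both panels, and replicate 3 of the ORF1p RIP sits below its group.

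With ORF2p, the sums of the LTR subfamilies hardly moved relative to the bulk of all subfamilies, with 1 exception. These changes use TMM factors, while the shares above are of library totals without them. Of 29 LTR subfamilies, 27 differed from the mock IP by less than 0.5 on the log2 scale, with a median of -0.08 and a lowest value of -0.32. Calls needed at least 2-fold and an adjusted p under 0.05. MLT1E3 was the only LTR subfamily called, at 2.28 ± 0.13 (SE, edgeR adjusted p = 6.32e-09). Of all 58 MLT1 subfamilies tested, 3 were higher and 0 lower, where 6.7% of all 1074 repeat subfamilies were higher and 1.49% lower. Over copies outside gene spans alone, 6 were called in all, in a fit where the other subfamilies kept all their copies. Over all repeats the median change was -0.03. DESeq2 likewise called 0 lower, and at an unadjusted p under 0.05 edgeR had 7 LTRs and 8 internal parts lower, all by less than 2-fold. The other exception to the 0.5 bound, named after its value was seen, was MLT1F2 at 0.52 ± 0.08 (SE, edgeR adjusted p = 0.000183). A single copy on chromosome 7, chr7:93809692-93809986, held 27.5% of the MLT1F2 reads of the ORF2p RIP and 0.509% of those of the mock IP. This change is therefore not one shared by the MLT1F2 copies at large. The most abundant LTR subfamilies lay near 0: MLT1D at -0.08, MLT1A0 at -0.11, MLT1C at -0.08, MLT1B at 0.02 and MLT1J at 0.03 (edgeR adjusted p between 0.291 and 0.877).

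MLT1E3 stood at 1697 ± 206 CPM in the ORF2p RIP, 306 ± 14.7 CPM in the ORF1p RIP, 350.0 ± 8.85 CPM in the mock IP and 392.4 ± 58.7 CPM in total RNA (SD, n = 4, 4, 3 and 6). Its 1308 copies did not share this. A single copy on chromosome 8, chr8:114297035-114297284, minus strand, within the span of the lncRNA gene LOC105375710, supplied 82.5% of the MLT1E3 reads of the ORF2p RIP, 1.35% of those of the ORF1p RIP, 19.4% in the mock IP and 21.7% in total RNA. It held 1194, 1553, 1611 and 1257 CPM in the ORF2p RIP, 3.52 to 4.86 CPM in the ORF1p RIP, 65.1, 73.0 and 65.4 CPM in the mock IP and 35.2 to 152 CPM in total RNA. The ORF2p RIP lay above every other library and the ORF1p RIP below every other one. Without that copy the change of MLT1E3 with ORF2p was 0.06 and did not pass (edgeR adjusted p = 0.511), and the copies outside gene spans alone gave -0.46.

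Internal parts, the remains of the inner sequence between LTRs, varied more. With ORF2p, 24 of 29 lay within 0.5 of the mock IP on the log2 scale, and 2 were called, both higher. MLT1F2-int stood at 92.0, 112, 118 and 107 CPM in the ORF2p RIP and at 46.2, 46.3 and 47.9 CPM in the mock IP. The groups did not overlap, and the change was 1.20 ± 0.11 (SE, edgeR adjusted p = 8.39e-07). Its leading copy, chr5:179085046-179085538 outside any gene span, supplied 24.6% of these reads in the ORF2p RIP and 3.31% in the mock IP. Without that copy MLT1F2-int stood at 0.85 (edgeR adjusted p = 2.78e-05) and with library totals at 0.89, both short of 2-fold. Of the 206 copies of MLT1F2-int 9 were tested, with 6 higher with ORF2p and 0 lower. Over all tested repeat loci, 24.6% were higher and 14.3% lower. Copies could pass the filter by being high in the ORF2p RIP, and their reads are in the sum. The count is therefore no separate support for the change of the sum. MLT1E1-int is rare, with 16 copies, and had 4.79, 7.25, 5.65 and 5.42 CPM in the ORF2p RIP and 2.26, 2.19 and 0.977 CPM in the mock IP. It was higher by 1.65 ± 0.38 (SE, edgeR adjusted p = 0.00349) and lost this without its leading copy on chromosome 10, at 0.46 (edgeR adjusted p = 0.369). That copy, chr10:83035968-83036295, held 144 reads over the 4 ORF2p RIP libraries, 11 over the ORF1p RIP, 11 over the mock IP and 12 over total RNA.

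The 10 most abundant internal parts all differed by less than 2-fold with ORF2p. MLT1C-int at -0.38, MLT1J2-int at -0.35 and MLT1A0-int at -0.24 passed the adjusted p (edgeR adjusted p = 0.00124, 0.018 and 0.0448), as did MLT1F-int at 0.41, MLT1H-int at 0.36 and MLT1B-int at 0.24 (edgeR adjusted p = 0.000422, 0.00698 and 0.0459). MLT1D-int at -0.25, MLT1A-int at -0.09, MLT1I-int at -0.04 and MLT1J-int at 0.07 did not (edgeR adjusted p = 0.0887, 0.512, 0.888 and 0.651). Of the less abundant ones, MLT1-int at -0.89 and MLT1E3-int at -0.83 passed it (edgeR adjusted p = 0.000173 and 0.00153). The change of an internal part told little of that of its LTR: over 28 pairs of subfamilies with the same name, 19 had the same sign, with a Pearson r of -0.16 and a Spearman rho of 0.17. These pairs share libraries, and the values are a description.

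With ORF1p, no LTR subfamily was called over the mock IP, by edgeR or by DESeq2, and 27 of 29 again lay within 0.5 on the log2 scale. At an unadjusted p under 0.05, edgeR had 4 LTR subfamilies higher and 10 lower. The 2 outside the bound, named after their values were seen, were MLT1L at 0.54 and MLT1E at -0.54. A single MLT1L copy, chr10:100361758-100361963, held 28.1% of the MLT1L reads of the ORF1p RIP and 2.54% of those of the mock IP. Internal parts spread wider, with 14 of 29 within 0.5. Of the 58 subfamilies 1 was higher and 3 lower, where 7.36% of all repeat subfamilies were higher and 8.75% lower. DESeq2 called 4 lower, and over copies outside gene spans alone edgeR called 26 subfamilies in all. In that fit the other subfamilies kept all their copies. Of the reads of all repeats, 15.7% lay outside gene spans in the ORF1p RIP and 29.7% in the mock IP. A lower MLT1 sum with ORF1p in that fit is therefore not particular to MLT1. MLT1E3-int had 48.8, 45.9, 51.4 and 40.2 CPM in the ORF1p RIP and 8.67, 12.1 and 9.17 CPM in the mock IP, without overlap, a change of 2.22 ± 0.17 (SE, edgeR adjusted p = 3.01e-08). Its leading copy, chr1:145413596-145414057 in the span of NBPF20, a gene of the neuroblastoma breakpoint family, held 33.8% of its ORF1p RIP reads and 7.55% of its mock IP reads. NBPF genes are near-identical copies of each other, so the placing of these reads is uncertain. Without that copy the change was 1.75 (edgeR adjusted p = 6.49e-06), and over copies outside gene spans the sign turned, to -2.33.

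MLT1E-int, with 12 copies, had 7 reads over the 4 ORF1p RIP libraries and 206 over the 3 mock IP libraries. Its levels were 0.107, 0.124, 0 and 0.570 CPM in the ORF1p RIP and 4.09, 4.92 and 4.36 CPM in the mock IP, a change of -4.32 ± 0.54 (SE, edgeR adjusted p = 5.85e-06), or -5.58 without ORF1p RIP replicate 4. MLT1E1-int stood at -1.96 ± 0.52 (SE, edgeR adjusted p = 0.00459), from 16 and 86 reads over the ORF1p RIP and the mock IP, and at -2.64 without ORF1p RIP replicate 2. MLT1-int, the internal part given no letter, had 15.3, 15.4, 19.8 and 16.3 CPM in the ORF1p RIP and 44.0, 51.9 and 44.6 CPM in the mock IP, a change of -1.49 ± 0.14 (SE, edgeR adjusted p = 3.41e-07). Without its leading copy, chr7:20480649-20481236 outside gene spans, it stood at -0.72. That copy held 5 reads over the ORF1p RIP and 905 over the mock IP. MLT1A-int at 0.76, MLT1D-int at 0.64 and MLT1B-int at 0.53 were higher by less than 2-fold, and MLT1G3-int at -0.998, MLT1I-int at -0.70 and MLT1H-int at -0.62 lower (edgeR adjusted p between 1.32e-05 and 0.00772). MLT1G3-int fell just short of 2-fold.

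**Figure D2:**
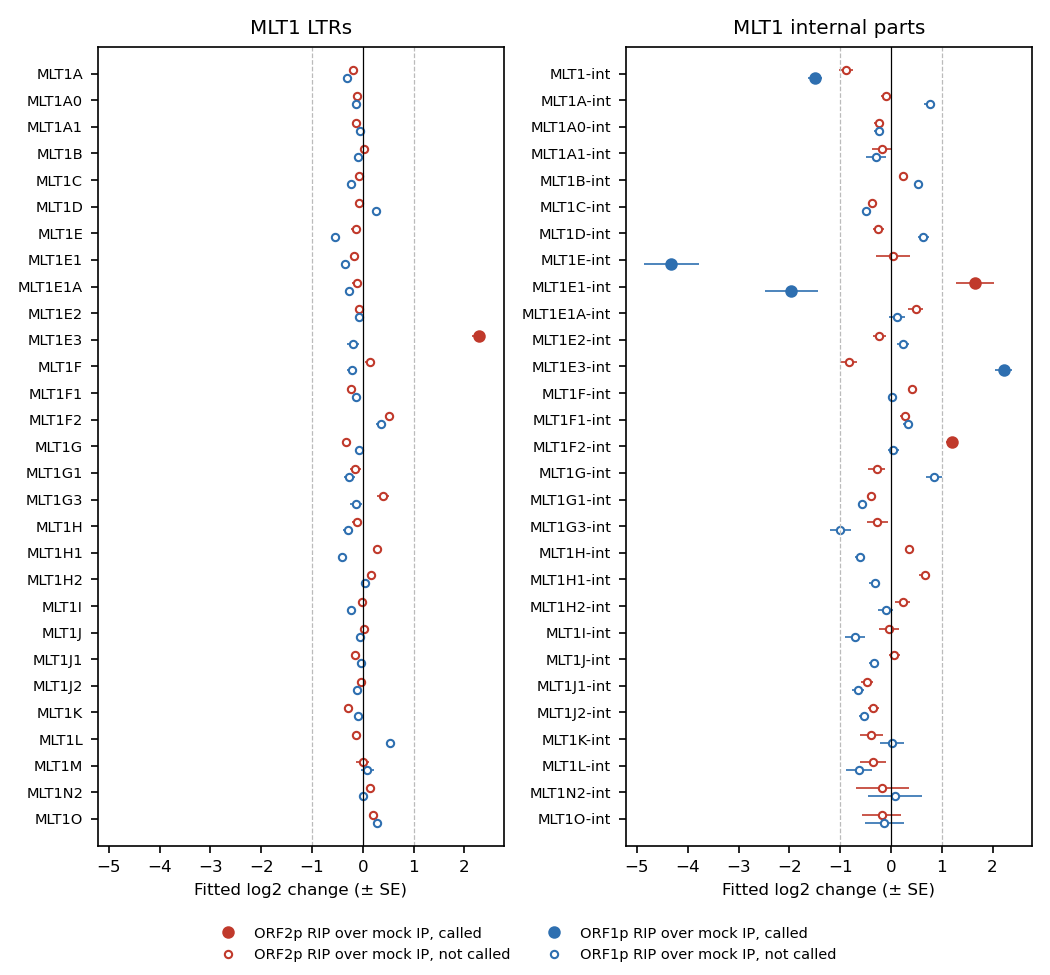
Fitted log2 change ± SE of each MLT1 subfamily, LTRs left and internal parts right, for the ORF2p RIP (red) and the ORF1p RIP (blue) over the mock IP. Filled points were called (adjusted p under 0.05 and at least 2-fold, dashed lines). Nearly all LTR points lie close to 0, MLT1E3 with ORF2p excepted, and the internal parts spread wider.

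Set against each other, ORF2p over ORF1p had 4 MLT1 subfamilies higher and 2 lower, where 12.4% of all repeat subfamilies were higher and 6.52% lower. DESeq2 called 5 internal parts higher where edgeR called 3. Over copies outside gene spans alone edgeR called 30 subfamilies in all, with the limit given above for that fit. MLT1E-int at 4.36 ± 0.53, MLT1E1-int at 3.61 ± 0.46, MLT1E3 at 2.47 ± 0.12 and MLT1F2-int at 1.15 ± 0.10 were higher with ORF2p (SE, edgeR adjusted p between 1.18e-10 and 5.7e-06). Leaving out replicate 4 of the ORF1p RIP gave 5.62 for MLT1E-int, and leaving out replicate 2 gave 4.29 for MLT1E1-int. MLT1E3-int had 5.53, 6.15, 5.65 and 5.21 CPM in the ORF2p RIP and 48.8, 45.9, 51.4 and 40.2 CPM in the ORF1p RIP, which puts ORF2p over ORF1p at -3.05 ± 0.16 (SE, edgeR adjusted p = 3.63e-10). MLT1G-int had 19.4, 20.4, 28.9 and 21.7 CPM in the ORF2p RIP and 55.4, 57.9, 36.2 and 47.9 CPM in the ORF1p RIP, which puts ORF2p over ORF1p at -1.13 ± 0.15 (SE, edgeR adjusted p = 1.07e-05). Its leading copy, chr11:13717869-13718278 in the span of FAR1, the gene of a fatty acyl-CoA reductase, and on the opposite strand, gave 9.73% of its ORF2p RIP reads and 32.4% of its ORF1p RIP reads. Without that copy the change was -0.72, and over copies outside gene spans the sign turned, to 1.22.

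Against total RNA, ORF2p had 3 MLT1 subfamilies higher and 0 lower, with 5.12% and 1.3% of all repeat subfamilies higher and lower, and 5 called outside gene spans alone. The 3 higher over all copies were MLT1E3 at 2.11, MLT1E1-int at 1.57 and MLT1F2-int at 1.10 (edgeR adjusted p = 2.96e-10, 0.000776 and 1.06e-07). DESeq2 called 0 lower too, and edgeR had 8 LTRs and 13 internal parts lower at an unadjusted p under 0.05. ORF1p had 1 higher and 5 lower over total RNA, with 9.12% and 8.29% of all subfamilies higher and lower. Outside gene spans alone 31 were called, with the limit given above for that fit. MLT1E3-int was higher at 2.60, and MLT1E-int at -4.29, MLT1E1-int at -2.04, MLT1G3-int at -1.39, MLT1-int at -1.38 and MLT1I-int at -1.28 were lower (edgeR adjusted p between 2.21e-10 and 0.00143). Leaving out replicate 4 of the ORF1p RIP gave -5.55 for MLT1E-int, and leaving out replicate 2 gave -2.72 for MLT1E1-int. MLT1I-int had 97.2, 93.1, 88.9 and 87.5 CPM in the ORF1p RIP, against 138 and 144 CPM in total RNA marked b and 259 to 265 CPM in that marked bl. Both comparisons share the total RNA libraries. The mock IP over total RNA had 0 of 58 MLT1 subfamilies higher and 0 lower, by edgeR and by DESeq2, with 0.745% and 0.0% of all subfamilies higher and lower, and 3 higher and 7 lower at an unadjusted p under 0.05. All 29 LTR subfamilies lay within 0.5 on the log2 scale there.

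**Figure D3:**
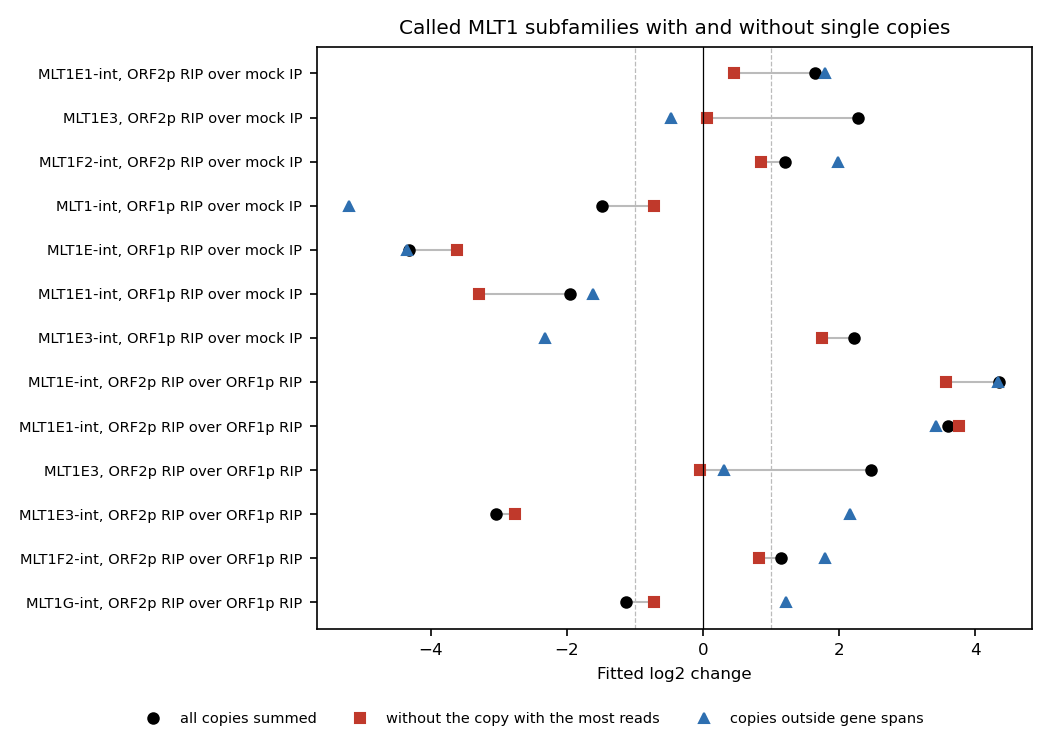
Fitted log2 change of each called MLT1 subfamily in 3 comparisons, with all copies summed (black), without the copy with the most reads (red) and over copies outside gene spans only (blue). In the last 2, subfamilies other than MLT1 kept all their copies. Dashed lines mark 2-fold. MLT1E3 with ORF2p drops to about 0 without 1 copy, and MLT1E3-int and MLT1G-int change sign outside gene spans.

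How much 1 copy weighed differed by kind. In LTR subfamilies, which had 576 to 14610 copies each, the leading copy held a median of 4.75% of reads over all libraries, and a median of 94 copies made up 50% of the reads. In internal parts, which had 1 to 958 copies each, the leading copy held a median of 14.8%, and a median of 7 copies made up 50%. The extremes were MLT1E3 at 50.9% among LTRs and MLT1O-int, with 10 copies, at 79.3% among internal parts, both named after their values were seen. MLT1M-int, with 1 copy, had no read and was not tested.

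Single copies moved far more than their subfamilies. Over the mock IP, 424 of the 2456 tested MLT1 copies were higher with ORF2p and 386 lower. That is 17.3% and 15.7%, where 24.6% of all 71437 tested repeat loci were higher and 14.3% lower. Without the ORF1p RIP libraries, 434 and 372 of 2332 were. Each of the 29 LTR subfamilies had at least 1 copy higher and at least 1 copy lower with ORF2p. With such shares and 11 to 244 tested copies per subfamily, copies on both sides are likely in any subfamily. Other repeat subfamilies were not counted in this way. MLT1D had 43 of 244 tested copies higher and 25 lower while its sum stood at -0.08, MLT1A0 had 40 and 33 of 209 while its sum stood at -0.11, and MLT1K, named after its values were seen, had 15 and 15 of 100. With ORF1p over the mock IP, 776 copies were higher and 1147 lower, or 31.6% and 46.7%, where 36.6% and 35.5% of all loci were. ORF2p over ORF1p had 1209 higher and 738 lower, or 49.2% and 30.0%, where 41.1% and 30.7% of all loci were. Again each of the 29 LTR subfamilies had copies on both sides, which these larger shares make likelier still. The mock IP over total RNA had 72 higher and 43 lower, with 5.8% and 2.13% of all loci, and these counts hung on single libraries: 290 in all without total RNA replicate 1, 289 without replicate 2, 46, 37, 42 and 50 without replicates 3 to 6, and 13, 36 and 32 without mock IP replicates 1 to 3. A copy that passed the filter through 1 group alone had to be high there, so these counts describe the tested copies and not MLT1 as a whole.

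The 8 MLT1 copies with the highest mean over the groups show the range. The MLT1D copy chr15:55614871-55615351, within the span of PRTG, the gene of protogenin, a cell surface protein of the early embryo, lies on the strand opposite to it. It held 20.6, 21.6, 19.1 and 18.7 CPM in the ORF2p RIP, 770, 832, 1509 and 911 CPM in the ORF1p RIP, 9.68, 6.44 and 10.5 CPM in the mock IP and 3.01 to 6.97 CPM in total RNA. With ORF1p it was 113-fold above the mock IP, 6.82 ± 0.42 on the log2 scale (SE, edgeR adjusted p = 8.97e-11), and it supplied 26.9% of the MLT1D reads of that group. The MLT1L copy chr10:100361758-100361963, within the span of SCD, which makes fatty acids unsaturated, had 25.6 to 35.0 CPM in the ORF2p RIP, 475, 460, 549 and 529 CPM in the ORF1p RIP, 28.8 to 35.0 CPM in the mock IP and 42.3 to 66.3 CPM in total RNA. Its ORF1p RIP libraries lay above all others, at 4.01 ± 0.30 over the mock IP (SE, edgeR adjusted p = 7.22e-10), and total RNA lay above the ORF2p RIP and the mock IP. Counts carry no known strand, so reads of a host gene and of a copy opposite to it cannot be told apart.

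The MLT1F2 copy chr7:93809692-93809986 lies outside gene spans. It held 418, 364, 474 and 346 CPM in the ORF2p RIP, 26.4 to 47.8 CPM in the ORF1p RIP, 6.53, 3.89 and 4.86 CPM in the mock IP and 4.33 to 10.1 CPM in total RNA. It was 78.6-fold higher with ORF2p than in the mock IP, at 6.29 ± 0.43 (SE, edgeR adjusted p = 1.55e-08), and also higher with ORF1p, at 2.69 ± 0.36 (SE, edgeR adjusted p = 1.47e-06). The MLT1F copy chrX:23659344-23659640 and the MLT1G3 copy chr9:12968029-12968514, outside gene spans too, were higher with ORF2p and lower with ORF1p. The MLT1F copy had 189 to 334 CPM in the ORF2p RIP, 2.70 to 3.85 CPM in the ORF1p RIP and 83.2 to 93.5 CPM in the mock IP, changes of 1.48 and -4.71 (edgeR adjusted p = 0.00525 and 9.2e-09). The MLT1G3 copy had 186 to 288 CPM in the ORF2p RIP, 3.45 to 6.64 CPM in the ORF1p RIP and 24.97 to 30.7 CPM in the mock IP, changes of 2.97 and -2.57 (edgeR adjusted p = 1.24e-05 and 5.25e-06). The MLT1E2 copy chr8:143834027-143834590 in the span of NRBP2 was called in neither, with 63.4 to 80.1 CPM in the ORF2p RIP, 60.1 to 95.9 CPM in the ORF1p RIP and 81.3 to 91.0 CPM in the mock IP (edgeR adjusted p = 0.606 and 0.811). The MLT1A copy chr5:25441872-25442155, outside gene spans, did not pass with ORF2p, at 0.06 (edgeR adjusted p = 0.893), and was lower with ORF1p, at -1.52 (edgeR adjusted p = 0.00019).

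**Figure D4:**
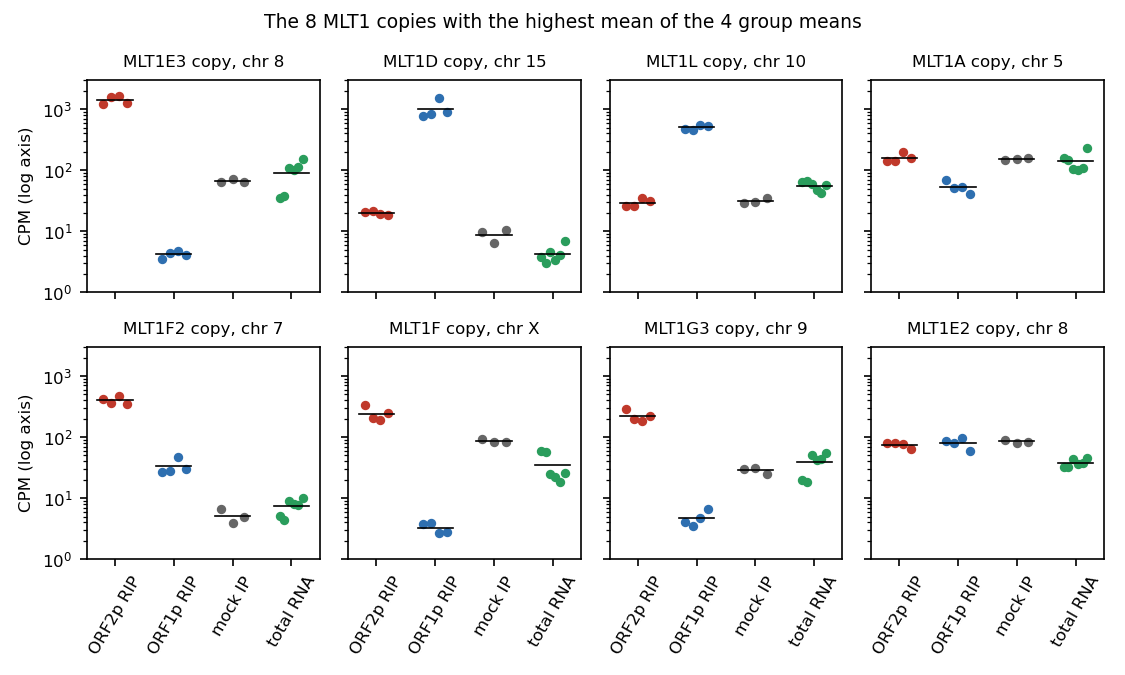
CPM (log axis) of the 8 MLT1 copies with the highest mean of the 4 group means, 1 panel per copy, for each library (points) with the group mean (line). The chromosome 15 MLT1D and chromosome 10 MLT1L copies are high in the ORF1p RIP alone, and the chromosome 8 MLT1E3 and chromosome 7 MLT1F2 copies are highest in the ORF2p RIP.

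The largest rises with ORF2p among named copies were in copies with few reads in the mock IP. The MLT1A0 copy chrX:152662267-152662596 lies on the same strand as MAGEA3-DT, the lncRNA divergent from a cancer-testis antigen gene. It had 59.9, 73.5, 58.9 and 62.5 CPM in the ORF2p RIP, 0 to 1.39 CPM in the ORF1p RIP and 0.550, 0.790 and 0.529 CPM in the mock IP, 102-fold above the mock IP (6.65 ± 0.76 on the log2 scale, SE, edgeR adjusted p = 1.85e-06). Other MAGEA genes are close in sequence, so some of these reads may be shared. The MLT1A1 copy chr2:84835716-84835963 in the span of TRABD2A, which codes for a membrane protease, had 548 reads over the ORF2p RIP and 2 over the mock IP (edgeR adjusted p = 2.08e-06). The MLT1J copy chr1:74178934-74179063 in the span of LRRIQ3 had 244 and 3, a change of 6.31 (edgeR adjusted p = 0.000104) that stood at 9.27 without mock IP replicate 1. Among copies called, without overlap and with at least 5 CPM in 1 group, the largest falls lay within gene spans and were smaller. Over all tested MLT1 copies the change with ORF2p ran from -6.95 to 8.87. The MLT1L copy chr3:61721736-61721985 in PTPRG, a receptor tyrosine phosphatase gene, had 1.28, 0.369, 0.837 and 0 CPM in the ORF2p RIP, against 8.36, 4.799 and 9.15 CPM in the mock IP (-3.63 ± 0.72, SE, edgeR adjusted p = 0.000461). Without ORF2p RIP replicate 1 this change was -4.30. The MLT1C copy chr10:86804845-86805219 in BMPR1A, a BMP receptor gene, stood at -3.45 ± 0.74 (SE, edgeR adjusted p = 0.000907).

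With ORF1p the largest differences ran between reads and no reads. The MLT1B copy chr2:185151438-185151562, outside gene spans, had 10.9, 11.3, 18.8 and 14.2 CPM in the ORF1p RIP and no read in the mock IP, the ORF2p RIP or total RNA. Against a floor of 3 counts over the mock IP it was at least 212-fold higher (edgeR adjusted p = 5.35e-07). The MLT1D copy chrX:13156367-13156809 in LOC105373134 and the MLT1B copy chr1:85515823-85516221 in DDAH1, an enzyme gene of arginine metabolism, were at least 128-fold and 86.2-fold higher, counted after rounding to whole reads (edgeR adjusted p = 9e-08 and 7.06e-06). In the other direction, the MLT1D copy chr21:28035082-28035566 outside gene spans had 19.6 to 22.5 CPM in the ORF2p RIP, no read in the ORF1p RIP, 22.4 to 25.01 CPM in the mock IP and 17.2 to 28.4 CPM in total RNA, at least 257-fold lower with ORF1p than in the mock IP (edgeR adjusted p = 9.27e-11). The MLT1K copy chr16:9669567-9669841 outside gene spans and the MLT1J copy chr12:20538360-20538623 in PDE3A, a phosphodiesterase gene, were at least 165-fold and 152-fold lower (edgeR adjusted p = 7.04e-10 and 1.73e-09). Of the 2456 tested MLT1 copies, 5 had at least 10 reads in each ORF1p RIP library and none in total RNA. No tested copy was like that in the ORF2p RIP. Copies below the filter were not counted, nor were other repeats.

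ORF2p over ORF1p gave differences of the same kind. The MLT1F2 copy chr12:86948399-86948595 had 28.2, 29.3, 37.4 and 33.5 CPM in the ORF2p RIP and no read in the ORF1p RIP, at least 347-fold higher (edgeR adjusted p = 6.01e-09). The MLT1C copies chr1:55036868-55037314 and chrX:28539616-28540079, all 3 outside gene spans, were at least 328-fold and 235-fold higher (edgeR adjusted p = 1.12e-10 and 1.8e-09). The MLT1L copy chrX:30447158-30447562 outside gene spans had no read in the ORF2p RIP and 24.6, 18.6, 28.0 and 20.8 CPM in the ORF1p RIP, at least 319-fold lower (edgeR adjusted p = 3.52e-09). The MLT1E3 copy chr2:122041387-122041891 in LOC105373592 was at least 147-fold lower (edgeR adjusted p = 4.28e-08).

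The change of a copy went with that of its surroundings. For each tested MLT1 copy the reads of all other repeats within 10 kb were summed, and 2454 copies had at least 50 such reads. Over these, the log2 change of the copy with ORF2p over the mock IP (CPM plus 0.5) correlated with that of its neighbours at 0.742 (Pearson; Spearman 0.653), and with ORF1p at 0.927 (Spearman 0.934). Copies in the same transcript share neighbours and libraries, so these are descriptions. Of the copies higher with ORF2p, 378 of 423 (89.4%) had neighbours above 0, with a median of 1.48 against 1.82 for the copies. Of those lower, 351 of 386 (90.9%) had neighbours below 0, with a median of -0.77 against -1.24. In the sentences that follow, the copy's value is its fitted log2 change. For the leading MLT1E3 copy with ORF2p the neighbours stood at 3.23 and the copy at 4.37. For the MLT1D copy in PRTG with ORF1p they stood at 6.63 and 6.82, and for the MLT1F2 copy of chromosome 7 with ORF2p at 5.38 and 6.29. The leading MLT1-int copy stood at -6.93 with ORF1p, or -7.70 without ORF1p RIP replicate 1, and its neighbours at -6.33. The MLT1F2 copy of chromosome 12 followed less closely, at 2.71 with ORF2p and neighbours at 0.53. Over the 1541 copies in a gene span, the correlation with other repeats of the same span was lower, at 0.547 with ORF2p and 0.891 with ORF1p. An LTR and the internal part within 200 bp on the same strand, as parts of one element, could be compared in 66 of 4164 such pairs, where the changes with ORF2p correlated at 0.858 (Spearman 0.766) and 48 of 66 had the same sign.

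**Figure D5:**
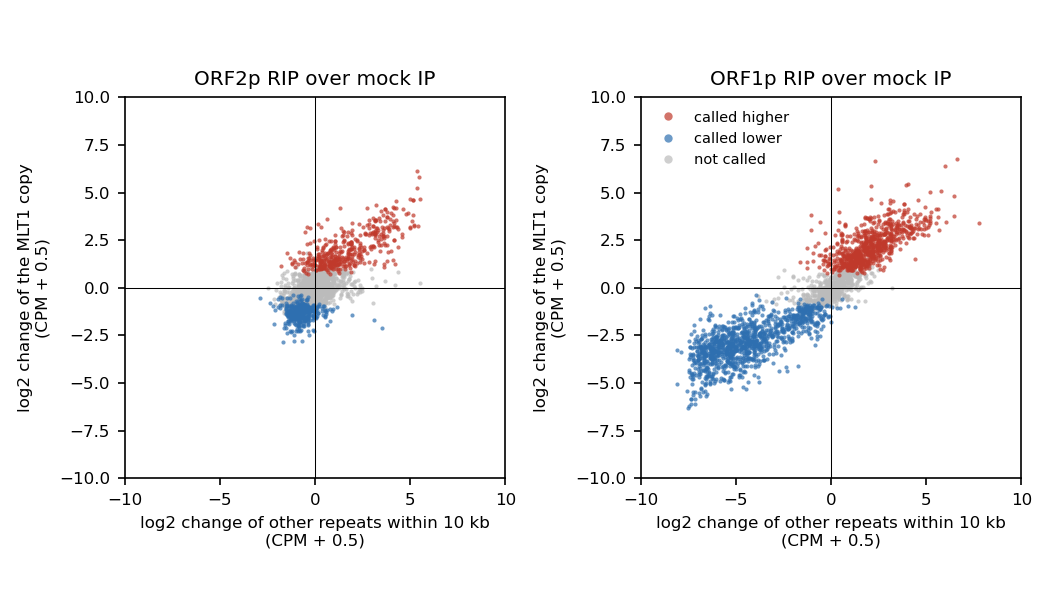
Log2 change of each tested MLT1 copy (vertical axis) against that of all other repeats within 10 kb (horizontal axis), for the ORF2p RIP (left) and the ORF1p RIP (right) over the mock IP, both from CPM plus 0.5. Points are copies called higher (red), lower (blue) or not called (grey). Most points lie along a rising diagonal, and the ORF1p RIP spreads over a wider range.

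MLT1 copies lay outside RefSeq gene spans more often than repeats in general, 42.8% against 36.0%, and of those with a stranded host 33.5% lay on its strand, against 43.3% of all repeats. Of the MLT1 reads, 33.0 ± 0.46% came from outside gene spans in the ORF2p RIP, 15.4 ± 0.45% in the ORF1p RIP, 29.5 ± 0.72% in the mock IP and 31.4 ± 2.62% in total RNA (SD, n = 4, 4, 3 and 6). The ORF1p RIP libraries, at 15.1% to 16.02%, lay below all others. For all repeats the share was 29.8 ± 0.40% in the ORF2p RIP, 15.7 ± 2.64% in the ORF1p RIP, 29.7 ± 0.23% in the mock IP and 28.3 ± 2.22% in total RNA. The shares of MLT1 reads by chromosome differed most in the ORF1p RIP as well. Chromosome 15 held 1.72 ± 0.12% in the ORF2p RIP, 6.63 ± 1.22% in the ORF1p RIP, 2.03 ± 0.06% in the mock IP and 1.79 ± 0.23% in total RNA. It holds the MLT1D copy in PRTG, with 31280 reads over the ORF1p RIP. MLT1 reads in these libraries were 191680 to 293350 each. Shares of all repeats by chromosome were not taken. Chromosome 13 held 1.34%, 3.34%, 1.35% and 1.40% in the same groups, and chromosome 21 held 2.52%, 1.26%, 3.14% and 3.51%. On chromosome 8, with the leading MLT1E3 copy, the ORF2p RIP held 8.05%, the ORF1p RIP 5.79%, the mock IP 4.44% and total RNA 4.49%.

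Age and length set the copies apart little. Over the 29 LTR subfamilies, the change with ORF2p over the mock IP correlated with median divergence at -0.02 (Pearson; Spearman 0.18), and over the 29 internal parts at -0.15 (Spearman -0.17). With ORF1p the values were 0.245 (Spearman 0.302) and 0.00 (Spearman -0.20). Among tested copies, those higher with ORF2p had a median divergence of 23.3%, those lower 23.7% and those not called 24.3%. Their median lengths were 376, 384 and 389 bases, against 295 over all MLT1 copies. By letter, the median change of the LTRs with ORF2p ran from -0.30 in MLT1K to 0.20 in MLT1O, each of 1 subfamily, with -0.13 in the 3 of MLT1A, -0.13 in the 5 of MLT1E and 0.16 in the 3 of MLT1H. Of the other ERVL-MaLR subfamilies, THE1 and MST, 0 of 25 were higher and 0 lower with ORF2p over the mock IP, with a median of -0.12, and of the ERVL family 1 of 123 was higher and 2 lower, with a median of -0.19. MLT1 thus lay close to both, and no difference from them was tested.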

How the data were processed

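RIP-seq and total RNA libraries of N2102Ep were analysed from 1 table of repeat loci. Per the submitters' processing notes, STAR and hg38 were used, and the counting program and its use of strand are not given in the sources used here. The values deposited by the authors are expected counts (estimated read counts) per repeat locus. They were rounded to whole reads. The table has 43 other columns of per-sample values, which match no sample here and were not used.

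Columns were matched to samples by name. Counts were summed by subfamily and tested with the quasi-likelihood test of edgeR 4.0.16 (R 4.3.3) over all 17 libraries, with TMM factors from the subfamily sums. Filters (filterByExpr) were a min.count of 10 for subfamilies and 50 for single copies. Benjamini-Hochberg adjustment ran over the 1074 subfamilies or the 71437 loci tested, and a call needed an adjusted p under 0.05 and at least 2-fold. SE is the absolute log2 change over the square root of F. DESeq2 1.42.0, library totals, other filters, a replicate block and leaving out libraries, leading copies or gene spans were alternatives. In the fits, leaving out leading copies or gene spans changed the MLT1 sums alone. The labels do not say whether equal replicate numbers pair the libraries, and the main fits took no pairing. Deviations of libraries with the same number correlated at -0.47 to 0.45, which does not settle it, since other numbers were not compared.

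Subfamilies were named if they were among the 10 internal parts or 5 LTRs with the highest mean over the groups, or among the 3 higher and 3 lower of each kind with the largest change among those called in a comparison. Named copies were the 8 with the highest mean, the 3 higher and 3 lower with the largest change in each comparison of the RIPs with the mock IP or each other (called, groups not overlapping, at least 5 CPM in 1 group), and the copy with the most reads of a subfamily named among internal parts or calls. Other names were chosen after their values were seen. Not every copy that the rule names is reported here. MLT1 and all lists were chosen with earlier results of these data known. Comparisons with neighbours, adjacent pairs, promoters, chromosomes and between libraries, counts of copies on both sides, and the fit without the ORF1p RIP were chosen after the data were seen. Starts are 1-based. The test scripts were tested on simulated data. Depth was 7693841 to 19670774 repeat reads per library. The number after the subfamily in a locus name carries no label and was read as the divergence from the consensus that RepeatMasker writes, given here in percent.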

Additional observations from a re-analysis of the deposited data

Results flagged for a closer look

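In groups of 4 or 6 libraries, 139 sets of values were examined for 1 library far from the rest of its group, and 15 had one. Chance gives about 1 in 20 where values vary smoothly. A set with all libraries but 1 at 0 is always flagged, so that rate does not hold for it. Such sets are given below as others 0, and the count of 15 is not set against chance. Replicate 3 of the ORF1p RIP recurs. Its TMM factor was 0.807 (others 1.03 to 1.05), and a low factor raises all CPM values of a library but not its shares. It had reads at 21123 MLT1 copies (others 35290 to 38614). Its share of MLT1 internal parts was 0.159%, with the others at 0.203% to 0.205%. It had 219 CPM of MLT1A-int (others 163 to 171), 396 CPM of MLT1D-int (others 337 to 344), 47.8 CPM of the MLT1F2 copy on chromosome 7 at 93809692 (others 26.4 to 29.6), 9.24 CPM of the MLT1L copy on chromosome 3 at 61721736 (others 1.74 to 2.28) and 0.0805 CPM of the MLT1J copy on chromosome 1 at 74178934 (others 0). Replicate 4 of the ORF1p RIP had 53.9 CPM of MLT1F2-int (others 45.8 to 47.1) and 0.798 CPM of the MLT1A1 copy on chromosome 2 at 84835716 (others 0).

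In the ORF2p RIP, replicate 3 had 136 CPM of MLT1B-int (others 143 to 144) and 160.0 CPM of MLT1I-int (others 139 to 141), and replicate 1 had 0.106 CPM of the MLT1D copy on chromosome X at 13156367 (others 0). In total RNA that copy had 0.0425 CPM in replicate 1 (others 0). Also in total RNA, the MLT1B copy on chromosome 1 at 85515823 had 0.198 CPM in replicate 3 (others 0), the MLT1C copy on chromosome 1 at 55036868 had 3.89 CPM in replicate 6 (others 6.83 to 7.33) and the MLT1L copy on chromosome X at 30447158 had 0.126 CPM in replicate 5 (others 0). Values under 1 CPM are a few reads. The cause was not tested.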

How the results depend on the processing

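Calls of MLT1 subfamilies hung on single copies and on gene spans. Without each leading copy, ORF2p had 1 call over the mock IP and 0 over total RNA. There MLT1E3 turned to -0.0375 over ORF1p and -0.0327 over total RNA. In the setting outside gene spans only MLT1 sums were cut, so a lower value with ORF1p in it is not particular to MLT1. The calls in it were 6 (ORF2p over mock IP), 26 (ORF1p over mock IP), 30 (ORF2p over ORF1p), 31 (ORF1p over total RNA) and 5 (ORF2p over total RNA). There MLT1E3 turned to -0.46 with ORF2p over the mock IP and -0.59 over total RNA, MLT1E3-int to -2.33 with ORF1p over the mock IP, 2.16 for ORF2p over ORF1p and -3.07 with ORF1p over total RNA, and MLT1G-int to 1.22 for ORF2p over ORF1p. Library totals gave 6 calls for ORF2p over total RNA and shifted the median of all subfamilies by -0.34 for ORF2p over the mock IP. Leaving out 1 library gave 3 to 4, 4 to 5, 6 to 8, 6 to 7, 3 to 3 and 0 to 0 calls, in the order ORF2p over mock IP, ORF1p over mock IP, ORF2p over ORF1p, ORF1p over total RNA, ORF2p over total RNA and mock IP over total RNA.

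Counts of single copies followed the filter. At a min.count of 100 they were 363, 782, 768, 780, 420 and 64 in that order, and at 20 they were 1719, 5115, 5540, 5480 and 2616 in the first 5. Without total RNA marked b they were 1266, 1268, 1264 and 462 for ORF1p over mock IP, ORF2p over ORF1p, ORF1p over total RNA and mock IP over total RNA. Without 1 library they ran 607 to 861, 1570 to 2005, 1578 to 2062, 1578 to 2071, 779 to 1078 and 13 to 290. The replicate block gave 3, 5, 6, 6, 3 and 0 subfamilies and 732, 1890, 1951, 1942, 875 and 0 copies. Without the ORF1p RIP libraries, a setting chosen after seeing the data, ORF2p over mock IP, ORF2p over total RNA and mock IP over total RNA had 3, 3 and 0 subfamilies and 806, 1024 and 126 copies.

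Without leading copies the LTR share was 2.29% with ORF2p and 3.03% in the mock IP, and that of internal parts 0.136% with ORF2p, 0.172% in the mock IP and 0.189% in total RNA. Of the repeat reads outside gene spans, LTRs made up 2.88% in the ORF2p RIP and 3.68% in total RNA. Internal parts made up 0.176% of them with ORF2p, 0.228% with ORF1p and 0.192% in the mock IP. Causes were not tested. Of 614 single values under other settings, 589 kept direction and side of the threshold, 17 lost the call and 8 turned sign. Copies with few reads were not tested singly, so depth limits the tests by copy to 1.49% of MLT1 copies, while the subfamily sums and shares hold all copies.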
